A study of Pelodiscus sinensis with 18 samples.

Results

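The transcriptome of liver was set against that of gut in Chinese soft-shelled turtles (Pelodiscus sinensis) that had not been exposed to niclosamide, to describe what each organ makes. The comparison rests on the 3 control livers and the 3 control guts, chosen by their labels, out of 18 libraries in the series. The series as a whole asks how niclosamide, an anthelmintic and molluscicide, changes both organs, and it also holds 3 livers and 3 guts from each of the groups given 10 µg/L and 50 µg/L of the compound (nic10 and nic50 here). All groups carry the genotype label WT, and age, sex, diet and the stretch of gut sampled are not stated in the labels. Whether a group holds 3 animals or fewer is not stated either, so p-values cover only how far these libraries lie apart, and that spread may be technical.

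The liver of a vertebrate is a secretory and metabolic gland. Hepatocytes release clotting factors, carrier proteins, complement and lipoproteins into the blood, turn ammonia into urea, break down amino acids, store glycogen and make bile. The gut is a tube of absorptive epithelium over muscle, in which enterocytes digest at a brush border and take up the products, beside mucus cells, hormone cells, nerve, muscle and many immune cells. Bulk libraries average all of these cells, so fewer cells of a type and less RNA per cell cannot be told apart.

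The marker genes of each organ followed the labels. FGB, the fibrinogen beta chain of hepatocytes, stood at 21912, 17476 and 18800.4 FPKM (fragments scaled by transcript length and by library size) in livers 1, 2 and 3 and at 3.6, 4.74 and 4.08 in guts 1, 2 and 3. APOB, the scaffold of the large lipoproteins, stood at 750.0, 949.9 and 1065 in liver and at 129.8, 127 and 92.1 in gut, where enterocytes are also known to make it. CDX2, the transcription factor that sets intestinal identity, was listed at 0, 0.00937 and 0 in liver and at 49.6, 57.2 and 46.9 in gut. FABP2, the fatty acid carrier of enterocytes, and MYH11, the myosin of smooth muscle, were also higher in gut, by -6.09 (SE 0.99) and -3.88 (SE 0.49) as a log2 difference of liver minus gut. In none of these 5 genes did a liver overlap a gut, which was also so for 70.0% of all genes tested.

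Libraries of an organ were not equally alike. Livers 2 and 3 correlated at 0.993 across genes on the log2 scale, and liver 1 at 0.967 and 0.964 with them, while the guts correlated at 0.959 to 0.974 (genes are not independent replicates here). Liver 1 was also more concentrated, with 54 features making up 50% of its FPKM sum against 81 and 84 in livers 2 and 3 and 82 to 87 in the guts. FPKM sums were 623555 to 699273 in liver and 677583 to 730565 in gut, and the depth behind them is unknown. Genes named outside the naming rule, such as F2, MYO1A, PLVAP and FGF19, were chosen after their values were seen. Values that rest on liver 1 or on 1 gut are given library by library below.

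The organs differed in most of the genes they make. Of 13475 genes tested, 8634 (64.1%) differed at an adjusted p under 0.05 by limma, of which 1700 (12.6%) were higher in liver and 6934 (51.5%) higher in gut. Differences are of log2(FPKM + 1), liver minus gut, and understate the change of low genes. Because the median of all tested genes lay at -0.58, the split hangs on the scale. With trimmed means, which put the median at -0.002, liver was higher in 3424 genes and gut in 3380, and with quantile normalization, which put it at -0.063, liver in 3064 and gut in 3697. A stricter count, of genes that passed in the same direction on the deposited and on both other scales, held 4650 genes (34.5%), 1691 higher in liver (12.5%) and 2959 higher in gut (22.0%). With an absolute log2 difference of at least 1 on the deposited scale, 1165 genes (8.65%) were higher in liver and 3781 (28.1%) in gut. Calls are given on the deposited scale, and the count on all 3 scales is added where it differs. That count can only remove calls, so genes called level or not past are so on the deposited scale. Of 194 named genes tested, 9 that did not pass there passed with trimmed means and 4 with quantile normalization. Groups of 3 did not overlap in 9428 genes (70.0%), so a lack of overlap is common here, and in 5646 (41.9%) all 9 livers of the series lay apart from all 9 guts. The filter on low values keeps a gene that is high in 1 organ alone, so counts among tested members of a list describe the list and are not support by themselves.

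**Figure D1:**
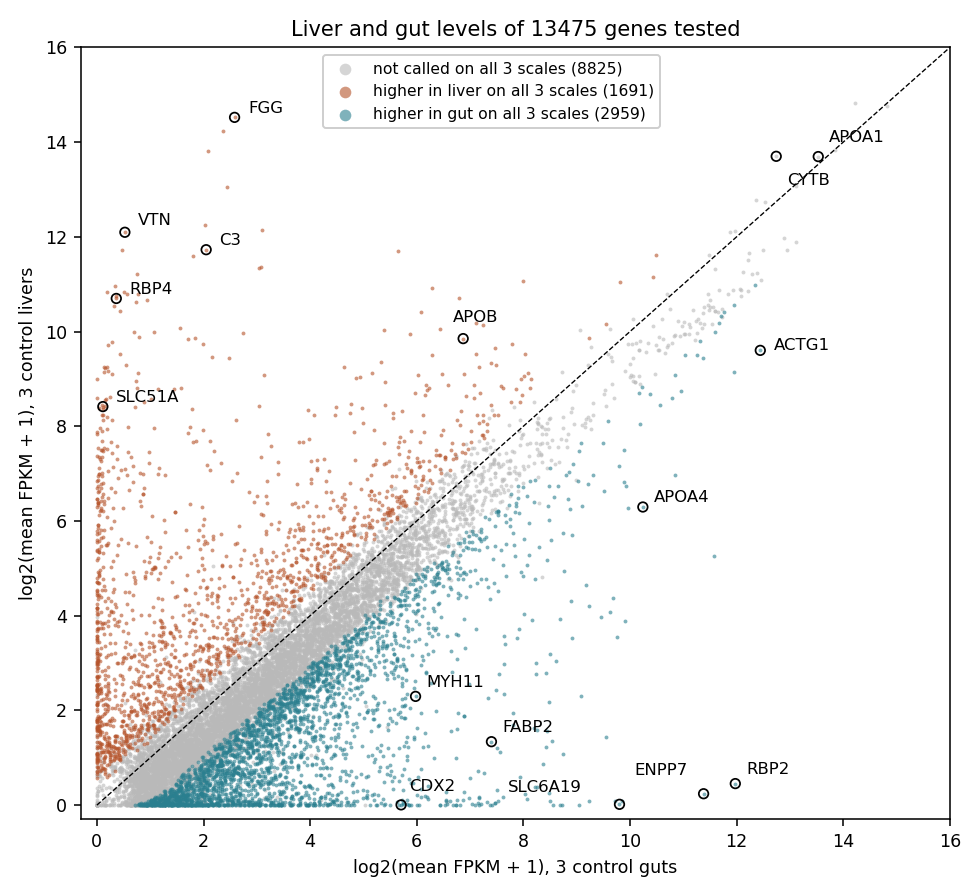
Mean level in the 3 control guts (horizontal) against the 3 control livers (vertical), both as log2(mean FPKM + 1), for 13475 genes tested, coloured by call on all 3 scales, with the dashed line marking equal levels. FGG, VTN, C3 and RBP4 sit along the left side with little in gut, RBP2, ENPP7 and SLC6A19 along the bottom with little in liver, and APOA1 close to the line near the top.

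The most abundant RNAs were partly shared. The 15 most abundant features of liver and of gut had 8 in common, among them the mitochondrial genes COX1, COX2, COX3, ATP6, CYTB and ND1 and the lipoprotein gene APOA1. The liver list also held the 3 fibrinogen chains, APOA2 (8435 ± 1418 FPKM, SD, n = 3) and PPDPF. Its other entries included LOC112546587 and LOC102457814, which have no symbol in the table or in RefSeq and stood at 4832 ± 1524 and 4514 ± 2400.1 in liver against 3.09 ± 0.708 and 7.57 ± 1.77 in gut. The gut list held the elongation factor EEF1A1, the iron store FTH1 (LOC102459032), the cytoskeletal actin ACTG1 (LOC102453465) and 4 ribosomal protein genes. A place in it is a rank and does not mean absence from liver. FTH1 was at 8174, 6179 and 8277 FPKM in gut and also at 3615, 4580 and 3833 in liver. After rescaling by trimmed means EEF1A1, FTH1 and RPS26 did not pass by limma (adjusted p of 0.131, 0.707 and 0.13). Of the 24880 features, 9415 had a mean of at least 1 FPKM in both organs, 797 in liver only and 2502 in gut only.

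Clotting genes were higher in liver. Of 22 genes listed, 18 were matched and tested, and 18 were higher in liver (F8, which endothelium makes, was listed with the sinusoid markers and is given there), with a median log2 difference of 7.90 against -0.58 over all tested genes. FGG, the fibrinogen gamma chain, was at 24622, 22328 and 23622 FPKM in liver and at 5.29, 4.6 and 5.08 in gut (log2 difference 11.94, SE 0.16, adjusted p = 2.28e-18), and FGA, the alpha chain, differed by 11.72 (SE 0.15). The 3 chains, whose genes are neighbours on chromosome 5 of the RefSeq assembly, took 8.13% to 9.29% of all FPKM in livers but 0.00163% to 0.00192% in guts. The enzymes and inhibitors of the cascade followed the same direction at lower levels. F2 (prothrombin) was at 605, 289 and 286 FPKM in liver, F9 at 303, 259 and 272 and F7 at 157, 125 and 133, with no gut above 0.29. SERPINC1, which encodes antithrombin, was at 2426, 1163 and 1161 in liver and at most 0.925 in gut, and PLG (plasminogen) averaged 1483 ± 98.3 in liver. Liver 1 was the highest liver for F2 and SERPINC1, and both passed without it. F10 (4.64, SE 0.21) and PROS1, or protein S (4.38, SE 0.19), kept 8.23 ± 1.67 and 5.21 ± 0.379 FPKM in gut (SD, n = 3).

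Carrier proteins and hormones of the plasma made up a second secreted group. Of 32 listed genes 18 were matched and 17 tested, with 16 higher in liver (median 8.36). ALB and TTR matched no symbol and are not analysed here. VTN (vitronectin) stood at 4854, 4029 and 4244 FPKM in liver and at 0.539, 0.248 and 0.529 in gut (11.57, SE 0.15). AHSG (fetuin-A) averaged 3380.4 ± 1263 FPKM in liver, AGT (angiotensinogen) 2389 ± 326, AMBP (LOC102444437) 2578 ± 424 and RBP4, the plasma carrier of retinol, 1660.1 ± 479 (SD, n = 3), with gut means between 0.287 and 7.21. FETUB, a second fetuin, differed by 10.47 (SE 0.37). IGFBP1, which binds insulin-like growth factors, was at 177, 153 and 163 FPKM in liver and listed at 0 in each gut. AFP, the fetal plasma protein of mammals, stood at 2571, 1286 and 1283 FPKM in liver and at most 0.351 in gut (10.30, SE 0.38). The exception was FGL1, which encodes a fibrinogen-like protein secreted by the liver of mammals. It was at 1.47, 2.56 and 2.2 FPKM in liver and 4.92, 3.65 and 5.85 in gut, a difference of -0.91 (SE 0.37, adjusted p = 0.0419) that did not pass on the other 2 scales (-0.34 and -0.27) or in 4 of 6 fits that left out 1 library (without liver 1 or 3, or gut 1 or 3).

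**Figure D2:**
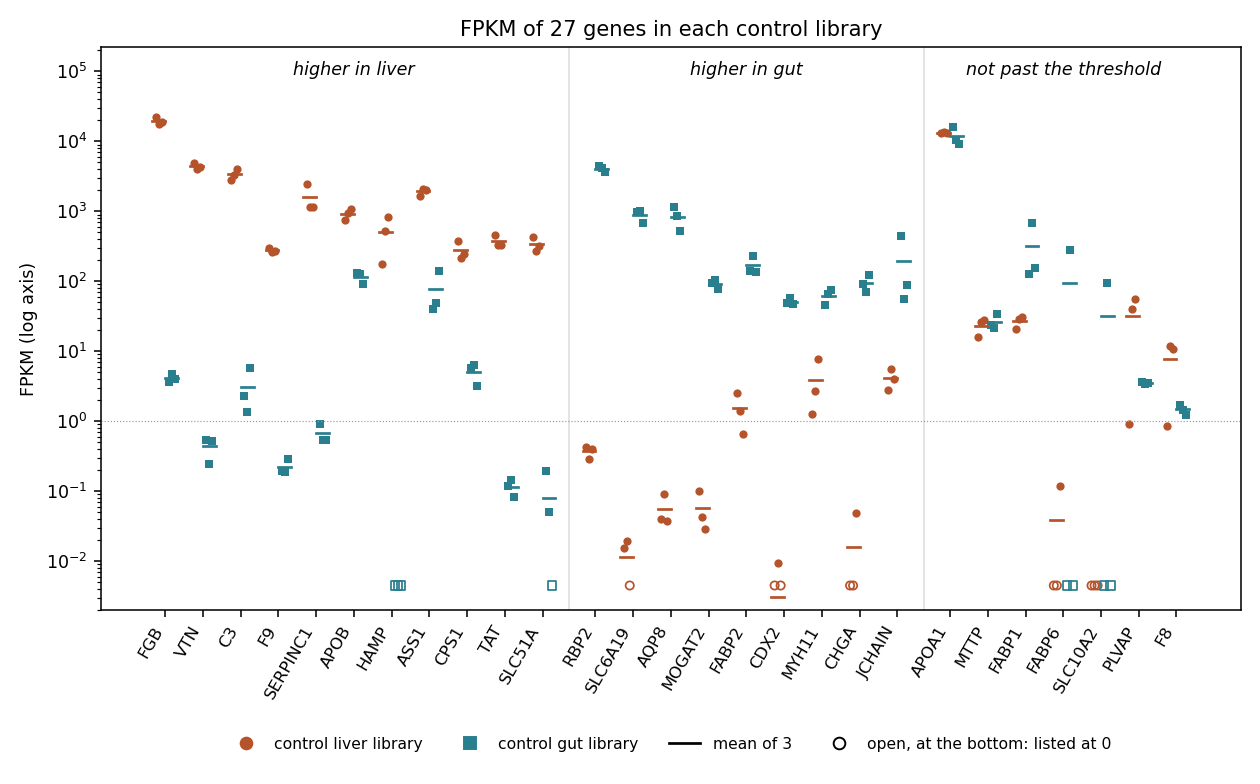
FPKM on a log axis of 27 genes in each control library, circles for livers and squares for guts, with a bar at the mean of 3 and open symbols at the bottom for values listed at 0. Livers lie above guts throughout the first block and below them in the second, while in the third APOA1 and MTTP are level and FABP1, FABP6, SLC10A2, PLVAP and F8 are uneven within 1 organ.

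Lipoprotein genes were divided between the organs. Of 17 listed genes 12 were tested, with 9 higher in liver, 1 higher in gut and 2 not past the threshold (median 4.66). APOA1, the main protein of high-density lipoprotein, was at 12958, 13686 and 13111 FPKM in liver and at 15758, 10565 and 9176 in gut (0.20, SE 0.52, adjusted p = 0.75), and liver and gut overlapped. MTTP, which loads lipid onto APOB, was at 15.8, 25.8 and 28.4 in liver and 23.6, 21.4 and 34.4 in gut (adjusted p = 0.694). APOA4, which in mammals comes mainly from small intestine, stood at 59.6, 86.4 and 86.5 in liver and at 1457, 1185 and 986 in gut (-3.95, SE 0.92). APOA5, a regulator of triglyceride clearance, went the other way, with 92.9, 219.7 and 211 in liver and at most 0.737 in gut (6.79, SE 0.27). In the RefSeq assembly APOA1, APOC3, APOA4 and APOA5 are adjacent genes on chromosome 26, so 3 neighbours had 3 patterns, level, gut and liver (APOC3 was not matched). APOA2 and APOC2 (LOC102458899), an activator of lipoprotein lipase, were higher in liver by 10.65 (SE 0.37) and 10.62 (SE 0.20). LCAT (LOC102457801), which esterifies plasma cholesterol, averaged 161 ± 18.1 FPKM in liver, and hepatic lipase, LIPC, stood at 88.4, 58.9 and 84.4 and was listed at 0 in the 3 guts.

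Complement was made mostly by liver as well. Of 20 listed genes 13 were tested, 12 of them higher in liver and 1 higher in gut (median 6.82). C3, the central component, was at 2814, 3355 and 4001 FPKM in liver and at 2.33, 1.34 and 5.74 in gut (9.81, SE 0.60). C8A and C9 of the membrane attack complex were at 556 ± 87 and 549.7 ± 85.4 FPKM in liver (SD, n = 3) and at most 1.22 in gut. C1R, a protease of the classical pathway, differed by 2.70 (SE 0.26). C7, another attack complex component, was at 4.67, 5.3 and 7.11 in liver and at 36.6, 33.8 and 36.2 in gut (-2.46, SE 0.54).

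Nitrogen metabolism was a liver programme. All 8 urea cycle genes listed were tested and 8 were higher in liver (median 3.06). CPS1, the entry enzyme, was at 380.2, 216 and 246 FPKM in liver against 5.76, 6.47 and 3.17 in gut (5.52, SE 0.34). ASS1 stood at 1671, 2111 and 1986 in liver and at 40.7, 49.3 and 141 in gut, and ASL, the next enzyme, at 525 ± 89.8 and 29.5 ± 2.18 (SD, n = 3). OTC differed least of these, by 1.82 (SE 0.23), with 24.3 ± 4.78 FPKM left in gut. ARG1, the arginase that releases urea, was at 447, 81.3 and 83 in liver and at most 0.0969 in gut, and it passed without liver 1.

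Enzymes of amino acid breakdown went with the urea cycle. Of 36 listed, 32 were tested, 28 were higher in liver and 4 did not pass (median 3.85). TAT, which starts tyrosine breakdown, was at 465, 326 and 334 FPKM in liver and at 0.119, 0.145 and 0.0815 in gut (8.38, SE 0.35). HPD of the same pathway stood at 766, 284 and 294, HAL, the histidine ammonia-lyase, at 185, 63.9 and 58.2, and GNMT (LOC102460961), a regulator of methyl groups, at 741, 319.9 and 287. Liver 1 was the highest liver for ARG1, HPD, HAL and GNMT, and its values were above those of livers 2 and 3 by more than those 2 livers differed from each other. CDO1, the cysteine dioxygenase, was even across livers (323, 379 and 396 FPKM) and differed by 7.64 (SE 0.24). GOT1 (2.15, SE 0.22) kept 176 ± 25.2 FPKM in gut. Among the genes that did not pass were AHCY, at 179 ± 0.371 and 157 ± 15.4, and HAAO, at 69.1 ± 7.32 and 59.8 ± 16.2 (SD, n = 3).

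Sugar metabolism leaned to liver by smaller steps. Of 20 listed genes of gluconeogenesis and glycogen 14 were tested, 13 higher in liver and 1 in gut (median 1.31). GYS2, the glycogen synthase of liver, was at 29.4, 22.4 and 23.4 FPKM there and at most 0.0207 in gut. UGP2, which makes the sugar donor for glycogen, differed by 3.16 (SE 0.12), PC (pyruvate carboxylase) by 4.30 (SE 0.17) and PYGL, the liver glycogen phosphorylase, by 1.13 (SE 0.18). PCK1, the cytosolic enzyme that commits carbon to glucose, ran against the list. It was at 5.79, 0.946 and 0.978 in liver and at 15.5, 135 and 7.8 in gut, so that each gut exceeded each liver but gut 2 held most of the mean (-3.19, SE 0.74, adjusted p = 0.00147). SLC2A2, the liver and enterocyte glucose carrier of mammals, was low in both, at 0.833 ± 0.415 and 0.177 ± 0.206 FPKM (SD, n = 3), and its call (0.63, SE 0.25) was lost in 4 of 6 fits that left out 1 library.

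Fat metabolism split by step. Of 20 listed genes of fatty acid oxidation and ketone metabolism 16 were tested, with 11 higher in liver and 1 in gut (median 0.90). ACADVL, the first dehydrogenase of long-chain oxidation, was at 189, 234 and 286 FPKM in liver and at 18.7, 32.3 and 30.5 in gut (3.09, SE 0.24). CPT1A, which admits fatty acids to mitochondria, differed by 2.75 (SE 0.32). OXCT1, which lets tissues burn ketone bodies and is known to be low in mammalian liver, was at 0.274, 0.963 and 0.815 in liver and at 8.12, 20.4 and 9.21 in gut (-2.93, SE 0.36). For fatty acid synthesis 16 genes were listed and 12 tested, 5 higher in liver, 4 in gut (3 on all scales) and 3 not past. THRSP, a lipogenic regulator, was at 733, 579 and 407 in liver and at most 0.185 in gut, and MLXIPL, the carbohydrate-sensing factor, differed by 4.04 (SE 0.17). SCD, the delta-9 desaturase, was at 235, 101 and 89.4 in liver and at 1024, 1036 and 582 in gut (-2.72, SE 0.53). SREBF1, the sterol-related lipogenic factor, was at 3.74 ± 0.159 and 28.5 ± 6.31 (-2.62, SE 0.26), and ME1 (malic enzyme) at 0.272 ± 0.0521 and 11.7 ± 2.67 (SD, n = 3), so the regulators of lipogenesis did not share a direction.

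Cholesterol synthesis genes leaned to liver where they passed. Of 23 listed genes 20 were tested, with 8 higher in liver, 2 higher in gut (0 on all scales) and 10 not past (median 0.55). EBP, a late-step isomerase, was at 132, 140.4 and 139.6 FPKM in liver and at 17.7, 11.2 and 21 in gut (3.02, SE 0.32). The lowest EBP value of liver lay above the highest of gut.

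Bile acid genes separated synthesis and export in liver from uptake in gut only in part. Of 22 genes listed for synthesis and export 16 were tested, 10 higher in liver, 2 higher in gut and 4 not past (median 1.09). CYP8B1 (LOC102444673), which sets the hydroxyl pattern of the bile acid, was at 38.2, 26.7 and 21.3 FPKM in liver, AKR1D1, the ring reductase, at 75.4, 46.9 and 44, and BAAT, the conjugating enzyme, at 31.6, 19.3 and 20.3, each at most 0.163 in gut. ABCB11, the export pump of the canaliculus, was at 46.4, 98.4 and 95.7 in liver and at most 0.0409 in gut (6.25, SE 0.28). CYP7A1 (LOC102457003), the rate-limiting enzyme in mammals, averaged 0.0429 ± 0.0277 in liver and 0.0352 ± 0.0196 in gut (SD, n = 3), below the filter, and SLC10A1, the hepatocyte bile acid importer of mammals, was listed at 0 in the 6 libraries. ATP8B1, a lipid flippase of the canalicular membrane, was higher in gut (-1.04, SE 0.22) but low in both organs. It was at 0.0716 ± 0.0822 FPKM in liver and 1.26 ± 0.715 in gut (SD, n = 3). ABCG8, a sterol exporter, was also higher in gut (-1.93, SE 0.60), on the deposited scale alone.

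Bile acid uptake rested on single guts. SLC10A2, the importer of the ileum, was at 94.5 FPKM in gut 2 and listed at 0 in guts 1 and 3, and FABP6, the ileal bile acid carrier, was at 281 in gut 2 and listed at 0 in guts 1 and 3. FGF19, the hormone that ileum sends to liver, was at 6.74, 26 and 0.0951 in the guts and at 1.93, 4.62 and 3.47 in the livers. None of these 3 passed, with adjusted p of 0.135, 0.167 and 0.622. Both chains of the basolateral exporter were higher in liver, which in mammals holds less of them than ileum. SLC51A was at 431, 274 and 315 in liver and at 0.192, 0.05 and 0 in gut (8.28, SE 0.16), and SLC51B at 127, 122 and 122 in liver and 26, 111 and 6.36 in gut (2.14, SE 0.66). The SLC51B call was lost without gut 3 (adjusted p = 0.0672). Gut 2 thus stood apart for ileal genes, and no label gives the region of gut, so region and animal cannot be told apart.

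Detoxification and peroxisome genes that passed were mostly higher in liver. Over all genes tested 12.6% were higher in liver and 51.5% in gut (22.0% on all scales). Of 39 listed detoxification genes only 18 were matched, 16 were tested, 9 were higher in liver and 2 in gut (0 on all scales). Of the cytochromes P450 listed, CYP2U1 and CYP4V2 were tested, and CYP4V2, a fatty acid hydroxylase, was higher in liver (1.52). ALDH2, which clears aldehydes, was at 159, 67.3 and 76.9 FPKM in liver and at 22.2, 19 and 48.2 in gut (1.74, SE 0.32). MGST1, a membrane glutathione transferase, was higher in liver by 0.58 (SE 0.20), a call lost without liver 1 (adjusted p = 0.0607) or without gut 2 (adjusted p = 0.0674). MGST3 differed by -0.87 (SE 0.21) and EPHX1, an epoxide hydrolase, by -0.86 (SE 0.15), and neither passed after rescaling by trimmed means. Of 19 peroxisomal genes 17 were tested, 10 higher in liver and 2 in gut (0 on all scales), and CAT (catalase) was at 704, 630.1 and 639 in liver and at 37.7, 49.2 and 30.1 in gut (4.07, SE 0.29).

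Iron genes were divided between the organs. Of 17 listed iron genes 13 were tested, 5 higher in liver, 3 in gut (1 on all scales) and 5 not past. HAMP, the hormone hepcidin, was at 175, 529.7 and 832 FPKM in liver and listed at 0 in each gut, and HJV, its co-receptor, was at 16.8, 30.6 and 32.7 in liver and also listed at 0 in each gut. TFR2, the iron-sensing receptor, was at 127, 119 and 146 in liver and at 0.116, 0.0906 and 0.268 in gut (6.83, SE 0.20), and TF (transferrin) differed by 7.22 (SE 0.80). HEPH, the ferroxidase of enterocytes, was listed at 0 in the 3 livers and stood at 8.73, 9.2 and 12.3 in gut. SLC40A1, the iron exporter ferroportin, was at 28.3, 29 and 26.2 in liver and at 16.3, 76.9 and 16 in gut (adjusted p = 0.976).

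Transcription factors that define hepatocytes in mammals were divided between those higher in liver and those that did not pass. Of 22 listed 18 were tested, 7 higher in liver, 2 higher in gut (0 on all scales) and 9 not past. The median was 0.61, or 1.16 after rescaling by trimmed means. HNF4A was at 15.4, 18.3 and 20.1 FPKM in liver and 21.5, 32.5 and 22.4 in gut (-0.47, SE 0.21, adjusted p = 0.0647). FOXA3 was at 39.4 ± 8.16 and 38.3 ± 5.49 and CEBPA at 33.2 ± 3.61 and 26.6 ± 1.11 in liver and gut (SD, n = 3), and neither passed. The highest difference in the list was that of ATF5, at 109.6, 354 and 334 in liver and 32.3, 24.5 and 35.9 in gut (2.90, SE 0.39). ESR1, the oestrogen receptor through which liver makes yolk protein in egg-laying vertebrates, was at 16, 24.9 and 26.4 in liver and at most 0.135 in gut (4.42, SE 0.18).

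Factors known for gut were mostly higher in gut. Of 27 listed 23 were matched and 21 tested, with 0 higher in liver, 19 higher in gut (17 on all scales) and 2 not past (median -3.38). CDX1, the partner of CDX2, was at 52.2, 59.1 and 46 FPKM in gut and at most 0.0518 in liver, both with a log2 difference of -5.70. HNF4G, the intestinal paralog of HNF4A, was at 1.95, 2.85 and 3.14 in liver and 42.5, 43.1 and 68.1 in gut (-3.82, SE 0.37). ELF3, an epithelial factor, differed by -6.36 (SE 0.40), KLF4 by -4.51 (SE 0.28) and SOX9 by -3.48 (SE 0.32). FOXF2, a factor of gut mesenchyme, was at 8.01, 8.59 and 12.1 in gut and listed at 0 in the livers.

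HOX genes, which mark position along the body, were present in gut from 1 end of their clusters only. Of 52 names listed 38 were matched and 15 tested, with 0 higher in liver, 12 higher in gut (11 on all scales) and 3 not past (median -1.22). Of the 22 genes of paralog groups 1 to 8, which act in the front and middle of the body, 14 had a gut mean of at least 1 FPKM and 1 had a liver mean of at least 1. That one was HOXA5, at 0.526, 1.77 and 0.858 in liver and 3.46, 3.37 and 4.09 in gut. The highest gut mean was that of HOXD8, at 3.03, 5.5 and 3.21 in gut and listed at 0 in each liver, and HOXC8 stood at 1.45, 3.55 and 2 in gut. Of the 16 genes of paralog groups 9 to 13, which act toward the tail, 0 reached 1 in either organ, the highest gut mean was 0.326 and 11 were listed at 0 in the 6 libraries. PDX1, a factor of the duodenum, was at 2.04, 2.51 and 1.21 in gut.

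**Figure D3:**
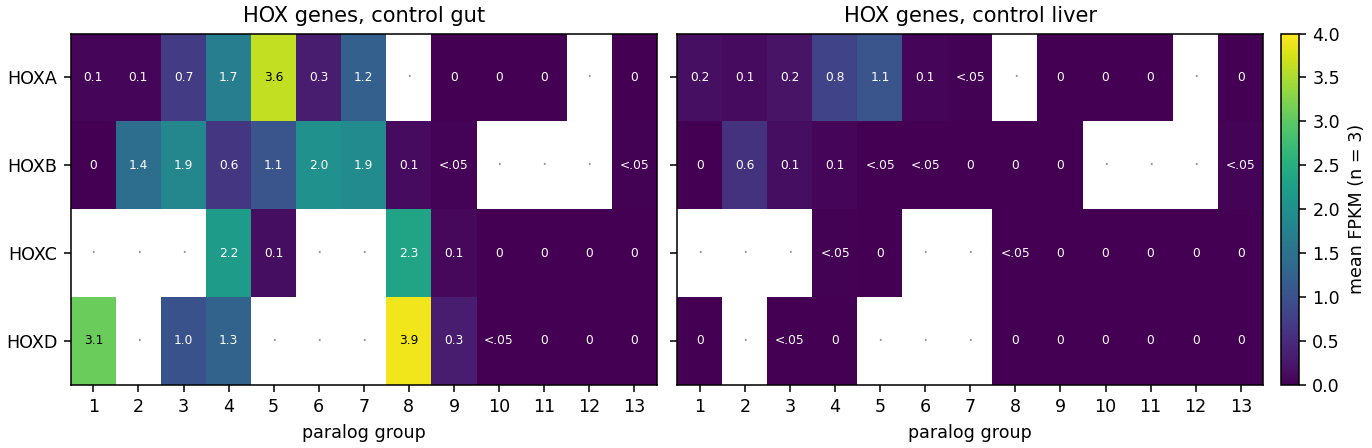
Mean FPKM (n = 3, colour) of the matched HOX genes by cluster (rows) and paralog group (columns) in control gut and control liver, with 0 for genes listed at 0 in all 3 libraries and a dot where no gene of that name was matched. Gut levels reach 3.92 within paralog groups 1 to 8 and 0.326 within groups 9 to 13, and the highest in liver is 1.05.

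Genes of the absorptive surface were mostly higher in gut. Of 27 brush border genes 21 were tested, 18 higher in gut, 1 higher in liver and 2 not past (median -4.75). MEP1A, a metalloprotease of the membrane, was at 411, 288 and 386 FPKM in gut and at most 0.097 in liver (-8.41, SE 0.84). ANPEP (LOC106732857), an aminopeptidase, stood at 1046, 969 and 567, and VIL1 (LOC102459110), the actin bundler of microvilli, at 319, 271 and 319, with livers at 10.7 ± 2.33 and 2.01 ± 0.248 (SD, n = 3). SI, the sucrase-isomaltase, was at 46.5, 42.8 and 56 in gut and at 8.54, 5.79 and 7.59 in liver (-2.58, SE 0.42). MYO1A (LOC102452251), a brush border myosin, was at 158, 139 and 110.2 in gut but also at 108 and 114 in livers 2 and 3, against 32.3 in liver 1 (adjusted p = 0.0715). TREH, which splits trehalose, was the member higher in liver (0.94, SE 0.36), with gut 3 above livers 2 and 3. The TREH call was lost in the fits without liver 1, gut 1 or gut 2.

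Carriers for nutrients followed. Of 24 listed 17 were tested, with 14 higher in gut (13 on all scales) and 3 higher in liver (median -3.11). SLC6A19, the main neutral amino acid carrier, was at 962, 1024 and 689 FPKM in gut and at most 0.0193 in liver (-9.76, SE 0.29). SLC15A1, the peptide carrier, was uneven among guts, at 384, 37.8 and 808, and at most 0.0184 in liver. SLC5A1, the sodium-coupled glucose carrier, was at 11.1, 10.8 and 47.1 in gut (-4.19, SE 0.49), and gut 3 was highest for both SLC15A1 and SLC5A1. The 3 members higher in liver were SLC2A2, SLC28A3, a nucleoside carrier (2.88, SE 0.53), and SLC16A1, a carrier of lactate and ketone bodies, at 18.4, 64.2 and 67.5 in liver and 10.7, 16.8 and 8.54 in gut (1.81, SE 0.38). Together the brush border and nutrient carrier genes took 0.682% to 0.77% of the FPKM sum in gut and 0.0189% to 0.048% in liver.

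Ion and water transport was also a gut feature. Of 27 listed genes 20 were tested, 16 higher in gut (14 on all scales), 1 in liver and 3 not past (median -2.81). AQP8, a water channel, was at 1135, 853 and 523 FPKM in gut and at most 0.0899 in liver (-9.56, SE 0.49). SLC26A3, the chloride and bicarbonate exchanger, was at 46.9, 60.8 and 48.8 in gut, CFTR, the chloride channel, at 11.6, 24.6 and 15.5, and BEST4, a channel of a subset of enterocytes in humans, at 19.8, 20.5 and 10.8, each at most 0.0854 in liver. CA2, a cytosolic carbonic anhydrase, was higher in liver (1.77, SE 0.34).

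Genes for the absorption of fat and retinoid went both ways. Of 24 listed genes 24 were tested, 8 higher in gut (6 on all scales), 7 higher in liver and 9 not past (median -0.66). Among all genes tested 51.5% were higher in gut (22.0% on all scales) and 12.6% in liver, with a median of -0.58. The gut count and the median thus do not set this list apart. RBP2, the retinol binding protein of enterocytes, was at 4379, 4095 and 3599 FPKM in gut and at 0.428, 0.288 and 0.395 in liver (-11.52, SE 0.45, adjusted p = 1.75e-12), the lowest log2 difference of the genes tested. ENPP7, the sphingomyelinase of the intestinal lumen and not a member of the list, was at 3943, 2178 and 1871 in gut and at most 0.286 in liver (-11.07, SE 1.43). MOGAT2, which rebuilds triglyceride in enterocytes, was at 94.7, 106 and 77.8 in gut and at most 0.101 in liver, and BCO1, which cleaves carotene to retinal, at 12.4, 20.3 and 16.9 in gut (-3.77, SE 0.45). FABP1, the fatty acid carrier that mammalian liver makes in bulk, was at 21, 29.1 and 31.3 in liver and at 128, 689.8 and 154 in gut (-3.11, SE 1.37, adjusted p = 0.0567), with no overlap and gut 2 far above the other guts. CD36, a fatty acid receptor, was at 71.3 ± 19.5 and 166 ± 50.5 (SD, n = 3; adjusted p = 0.193). On the liver side, ACSL1, which activates fatty acids, was at 534, 597 and 684 against 22.3, 20.9 and 28.7 (4.61, SE 0.18), and DHRS3, a retinal reductase, differed by 2.87 (SE 0.25).

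Genes of epithelial adhesion and keratins were mostly higher in gut. Of 28 listed 22 were tested, 17 higher in gut (15 on all scales), 2 in liver and 3 not past (median -1.83). EPCAM, an epithelial adhesion protein, was at 555, 559 and 623 FPKM in gut and at 14, 30.2 and 27.4 in liver (-4.61, SE 0.26). CDH17, the cadherin of intestine, differed by -6.82 (SE 0.18), and KRT20, a keratin of differentiated enterocytes, by -5.83 (SE 0.23). KRT8, which both epithelia are known to use, was at 990.2 ± 175 in gut and 76.1 ± 6.68 in liver (SD, n = 3). The members higher in liver were GJB1, the connexin of hepatocyte gap junctions, at 761, 562 and 563 in liver and at 0.146, 0.0677 and 1.16 in gut (8.82, SE 0.38), and the tight junction gene CLDN1 (2.30, SE 0.55). Other gut genes among the lowest differences were PLAC8 (LOC102445520, -9.04, SE 0.26), PRSS8, a membrane serine protease (-8.22, SE 0.24), and MUC13, a membrane mucin (-7.78, SE 0.24).

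The remaining cell types of the gut wall could be read from their markers. Of 15 matched smooth muscle markers 15 were tested, with 13 higher in gut (11 on all scales) and 0 higher in liver, and their summed share was 0.15% to 0.239% in gut and 0.0179% to 0.0393% in liver. ACTG2, the enteric actin, was at 251, 279.5 and 373 FPKM in gut and at 2.68, 3.15 and 11.6 in liver (-5.69, SE 0.59), and liver 3 was also the highest liver for MYH11 and for TAGLN (8.06, 7.85 and 26.4). The 6 tested goblet cell markers of 13 listed were higher in gut. AGR2, a folding enzyme of mucus cells, was at 325, 344 and 323 in gut (-7.64, SE 0.35), and SPDEF, their transcription factor, at 20.0, 18.9 and 20.3 (-4.24, SE 0.28). The 7 matched goblet cell markers summed to 364 to 400 FPKM in gut, most of it AGR2, and to 0.439 to 3.1 in liver.

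Markers of hormone cells, nerve and stem cells were detected in gut. Over all genes tested 51.5% were higher in gut, and 22.0% on all scales, so a count near these shares does not set a list apart. Of 29 enteroendocrine markers 19 were tested, 18 higher in gut (17 on all scales) and 1 in liver. CHGA, a granin of hormone granules, was at 90.0, 69.2 and 123 FPKM in gut and listed at 0, 0 and 0.0482 in liver. NTS (neurotensin) was at 162, 181 and 86.4, GCG (glucagon) at 39.8, 13.9 and 43.9, SST (somatostatin) at 38.9, 19.9 and 25.3 and CCK (cholecystokinin) at 34.1, 8.08 and 5.19 in gut. SCG5, a chaperone of prohormone convertase, was the member higher in liver (1.53, SE 0.22). Of 19 enteric neuron markers 12 were tested, 11 higher in gut (10 on all scales) and 1 in liver. With the 6 control libraries alone 6 of them were higher in gut. VIP, a neuropeptide, was at 16.4, 18.9 and 23.8 in gut (-4.33, SE 0.31), while RET, the receptor of enteric neuron precursors, was at 6.05, 4.74 and 3.89 in liver and at 0.867, 1.5 and 1.26 in gut (1.41, SE 0.26). Of 12 intestinal stem cell markers 9 were tested, 6 higher in gut (3 on all scales), among them OLFM4, at 417, 577 and 293 in gut (-7.65, SE 0.94), and LGR5, at 3.88, 8.35 and 7.07 (-2.62, SE 0.22). Of 30 cell cycle genes 22 were tested, 17 higher in gut (10 on all scales) and 0 in liver. MCM7 of the replication helicase was at 29.8, 20.6 and 37.4 in gut and 5.19, 6.23 and 5.21 in liver, while PCNA, the sliding clamp, was at 53.2 ± 7.62 in gut and 41.6 ± 16.1 in liver (SD, n = 3; adjusted p = 0.239).

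Pancreatic genes appeared on both sides. INS (insulin) was at 56.8, 37.2 and 15.5 FPKM in the guts and PNLIP, the pancreatic lipase, at 14.2, 6.09 and 7.21, both listed at 0 in each liver. AMY2A (amylase) was at 29.6, 40.5 and 39.1 in liver and at most 0.0375 in gut (5.19, SE 0.37). Of 18 pancreatic markers 4 were tested, and whether pancreas was included in a sample was not tested.

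Lymphocyte genes were mostly higher in gut. Of 16 T cell markers 12 were tested and 12 were higher in gut (10 on all scales), with summed levels of 73.5 to 216 FPKM in gut and 5.47 to 13.7 in liver. CD3E of the T cell receptor complex was at 81, 38 and 21 in gut and at 1.76, 4.3 and 3.12 in liver (-3.40, SE 0.41). Of 12 genes listed for B and plasma cells 8 were tested, 6 higher in gut (4 on all scales) and 0 in liver. The 6 include PIGR, which is a gene of epithelium and not of lymphocytes. Over all genes tested 51.5% were higher in gut, and 22.0% on all scales. With so few B and plasma cell genes tested, their count does little to set that list apart. JCHAIN, which joins secreted antibodies, was at 449, 55.7 and 88.1 in gut, and PIGR, the epithelial receptor that carries them into the lumen, at 595, 616 and 419 in gut and 2.72, 3.16 and 5.84 in liver. Gut 1 was the highest gut for CD3E and JCHAIN. Of 18 macrophage markers 10 were tested, 1 higher in liver, 3 higher in gut and 6 not past. The macrophage counts do not set that list apart from all genes tested. CD68, a lysosomal marker, was at 99.7 ± 17.8 and 98.9 ± 11.5 in liver and gut (SD, n = 3; adjusted p = 0.993). HMOX1, which degrades haem, was at 187, 356 and 362 in liver and at 20.6, 16 and 11.1 in gut (4.14, SE 0.30), while CD74, which serves antigen presentation, differed by -2.93 (SE 0.42).

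Granulocyte, erythroid and sinusoid markers that passed were higher in liver, and livers were uneven in several of them. Of the 3 thrombocyte markers tested, 1 was higher in liver and 2 in gut (1 on all scales). Of 11 granulocyte markers 4 were tested and 3 were higher in liver (1 with the 6 control libraries alone). MMP9 (LOC106732917), a protease of neutrophil granules, was at 34.2, 31.5 and 26.4 FPKM in liver and at 1.15, 0.576 and 1.44 in gut, whereas MPO (LOC102463089), the granule peroxidase, was at 0.902, 16.5 and 10.2 in liver. HEMGN, a gene of red cell precursors, was at 9.78, 51.4 and 36.7 in liver and 7.56, 4.76 and 3.93 in gut. The 3 tested erythroid markers of 13 listed were higher in liver, or 1 of them without liver 2 or without liver 3. Of 9 sinusoid markers 6 were tested and 3 were higher in liver, among them OIT3 of liver sinusoids, at 3.53, 6.47 and 6.6 and listed at 0 in each gut, and STAB1, a scavenger receptor (1.38, SE 0.35). PLVAP, an endothelial diaphragm protein, was at 0.924, 40.3 and 55.7 in liver and 3.53 ± 0.152 in gut (SD, n = 3), and F8, the clotting factor made by endothelium, at 0.845, 11.7 and 10.6 in liver. Neither PLVAP nor F8 passed (adjusted p of 0.0653 and 0.114), and in both livers 2 and 3 lay above every gut and liver 1 below. Of 13 endothelial markers 11 were tested, 5 higher in gut (2 on all scales), or 3 without liver 1, and 1 higher in liver, or 2 without it. Their median was -0.49, against -0.58 for all genes tested, of which 51.5% were higher in gut (22.0% on all scales). These counts therefore do not set endothelial markers apart.

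Members of several protein families were divided between the organs. Among retinol binding proteins RBP4 and RBP7 (8.07, SE 0.28) were higher in liver and RBP2 in gut. ALDOA (LOC102449400), the muscle-type aldolase of mammals, was at 125 ± 20.1 FPKM in liver and 442 ± 53 in gut (SD, n = 3). ARG1 was higher in liver and ARG2, the mitochondrial arginase, in gut (-1.52, SE 0.36). MAT1A, the liver-type methionine adenosyltransferase, was higher in liver by 5.78 (SE 0.35), whereas MAT2A differed by -0.81 (SE 0.17) and did not pass after rescaling by trimmed means. LDHB was at 1161 ± 357 in liver and 137 ± 31.5 in gut, and PKM, the pyruvate kinase of non-hepatic tissues in mammals, at 27.7 ± 7.87 and 202 ± 30.7 (SD, n = 3). Among the GATA factors of endoderm GATA4 was level (-0.13, SE 0.42), GATA6 higher in gut by -2.08 (SE 0.25) and GATA5 by -4.80 (SE 0.44). TFRC, the general transferrin receptor, was at 12.8 ± 2.54 and 19.9 ± 4.92, a difference of -0.59 (SE 0.24) that turned to 0.15 after rescaling by trimmed means and was not past the threshold without liver 1 or 3 or gut 2 or 3. Near-identical copies could share fragments, so values of paralogs are uncertain.

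**Figure D4:**
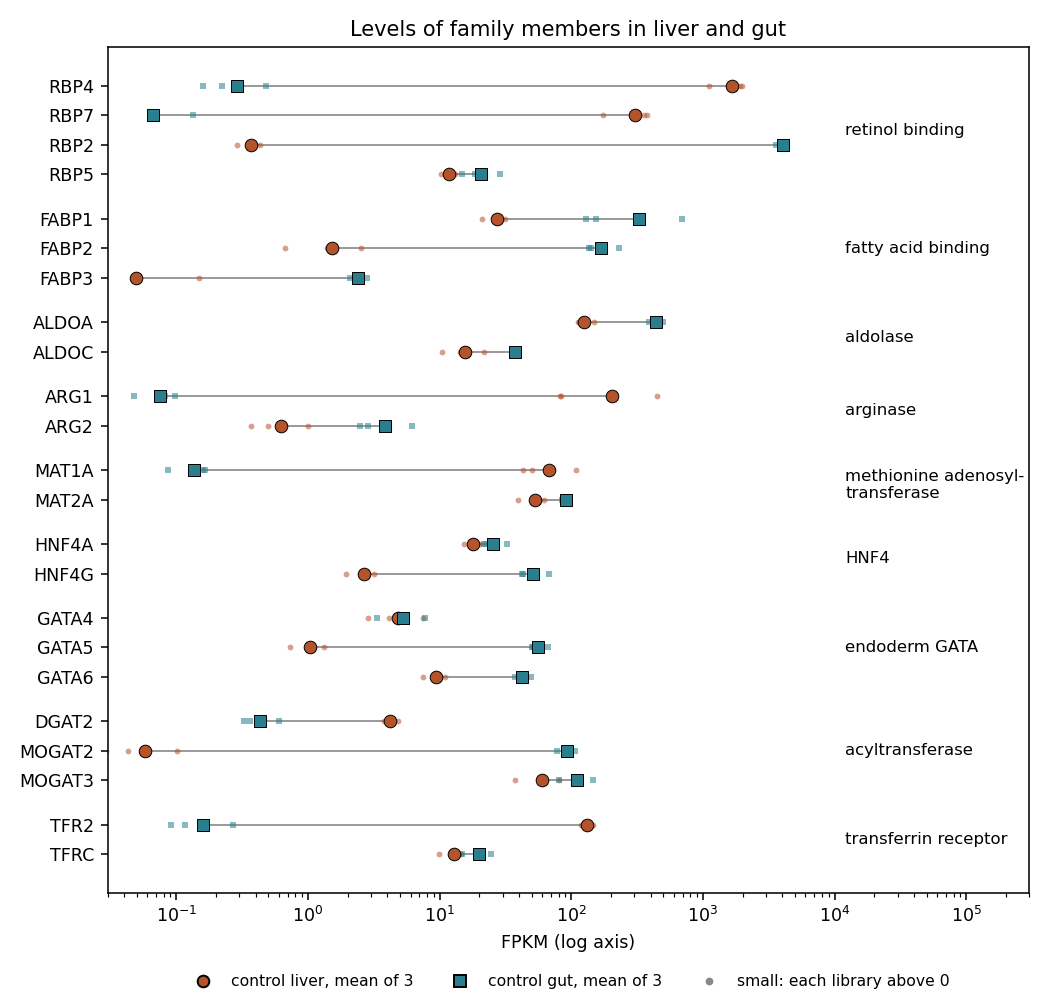
FPKM on a log axis of members of 9 protein families, with a large circle at the mean of 3 control livers, a large square at the mean of 3 control guts, small symbols for single libraries above 0 and a line joining the means. RBP4 and RBP2, and ARG1 and ARG2, lie on opposite sides, while GATA4 and HNF4A have means close together. TFR2 is higher in liver, and the small TFRC difference toward gut turned to 0.15 after rescaling by trimmed means.

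The translation machinery took a larger share of the gut. The 69 matched ribosomal protein genes made up 23.4% to 26.2% of all FPKM in guts and 12.2% to 13.7% in livers. On the deposited scale 65 of 68 tested were higher in gut, where 51.5% of all genes tested were. On all scales 8 of the 68 were, a smaller part than the 22.0% of all genes tested. The median was -1.05, or -0.27 after rescaling by trimmed means. RPS26 was at 3373 ± 412 in liver and 7921 ± 363 in gut (SD, n = 3; -1.24, SE 0.19), and it did not pass after rescaling by trimmed means, whereas RPL39 (-1.52, SE 0.21) passed on all 3 scales. The 13 protein genes of the mitochondrial genome made up 14.9% to 20.4% of the sum in liver and 11.5% to 15.1% in gut, with 1 higher in liver (0 on all scales), 1 in gut and 11 not past. The difference higher in liver was CYTB (0.95, SE 0.31), which was lost without liver 1 or gut 1. The one higher in gut was ATP8 (-1.81, SE 0.36), at 696 ± 197 FPKM in liver and 2656 ± 1515 in gut (SD, n = 3). On the deposited scale ATP6 was level, at 8612 ± 1991 and 8841 ± 2099 (-0.04, SE 0.25), and why ATP8 was higher in gut was not tested. The median of the 13 genes was 0.16, or 0.94 after rescaling by trimmed means. The 4 lists of blood proteins, with 61 matched genes, took 16.4% to 18.2% of the sum in liver and 1.47% to 2.42% in gut, where most of it was APOA1.

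**Figure D5:**
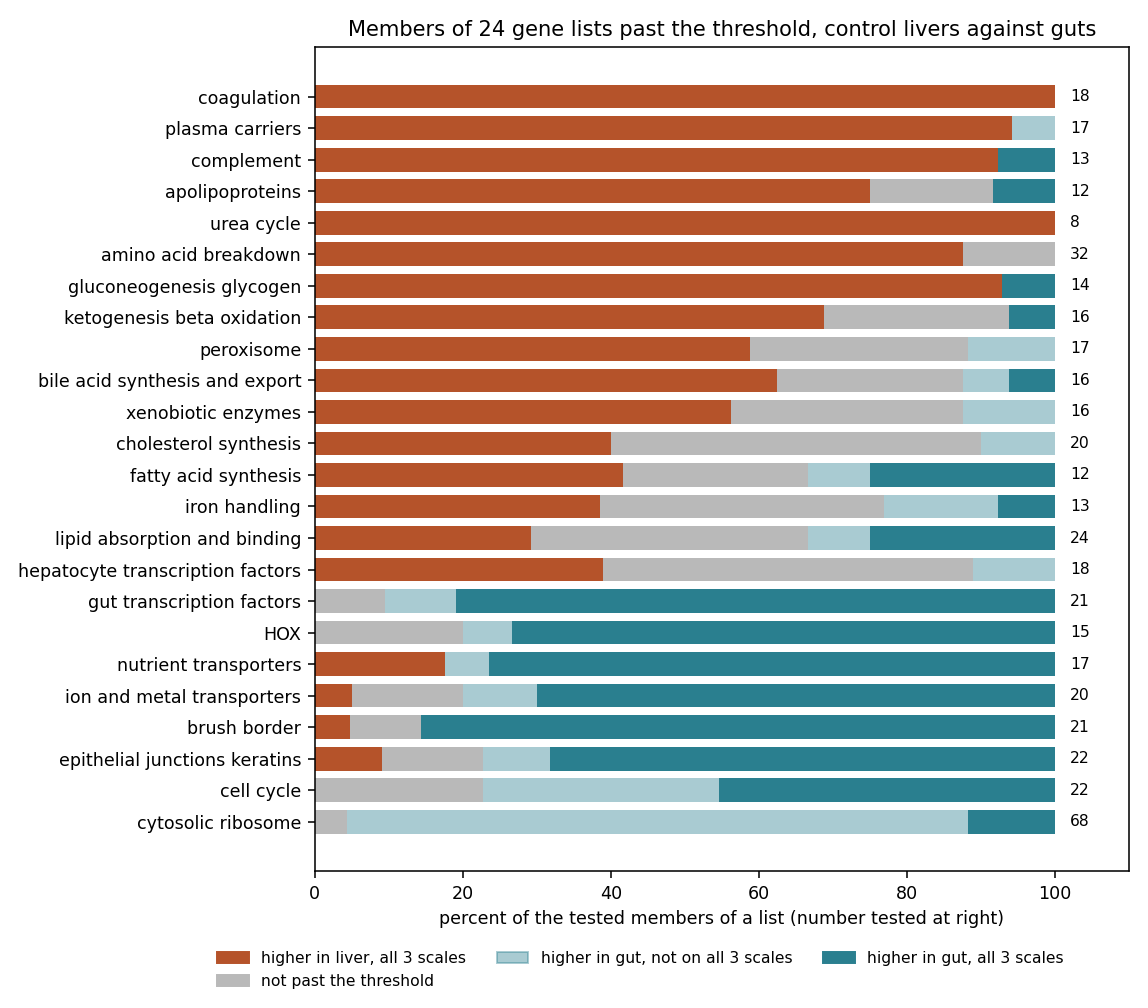
Percent of the tested members of 24 gene lists that were higher in liver on all 3 scales, higher in gut on all 3 scales, higher in gut but not on all 3 scales, or not past the threshold in the control comparison, with the number tested at the right of each bar. Over all 13475 genes tested 12.5% were higher in liver and 22.0% higher in gut on all 3 scales. Coagulation and the urea cycle are entirely in the liver colour, and the ribosome list is mostly in the pale gut colour.

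Most organ differences were also called between livers and guts of the exposed groups, whose libraries had no part in the control means but did enter the filter and the estimate of spread. Liver and gut differed in 9204 genes (68.3%) at nic10 and in 8027 (59.6%) at nic50. Of the 1700 genes higher in control liver 1261 (74.2%) were also higher at both doses, which is 89.9% of the 1402 genes higher in liver at both, and 6 went the other way at a dose. Of the 6934 higher in control gut 5037 (72.6%, and 91.5% of the 5503 higher in gut at both doses) were found again and 25 went the other way. Coagulation kept 18 of 18 genes higher in liver at each dose, where 1612 of 13475 genes tested, or 12%, were at nic10 and 2046, or 15.2%, at nic50, and the urea cycle 8 of 8. Brush border genes were higher in gut in 16 of 21 at nic10 and 18 of 21 at nic50, where 56.3% and 44.4% of all genes were. HOX genes were higher in gut in 15 of 15 tested at nic10 and 10 of 15 at nic50. APOA1, level in controls, differed by 1.39 at nic10 and by -0.00 at nic50, and FABP6 and SLC10A2 by -7.74 and -8.01 at nic10 and -4.69 and -1.69 at nic50. The size of the organ difference itself changed with dose in 49 genes at nic10 (0.364%) and 133 at nic50 (0.987%).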

How the data were processed

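RNA from liver and gut, extracted with TRIzol, went into libraries built by the VAHTS Universal V6 kit, per the labels' protocols. The authors deposited 1 table of FPKM values for 24880 features and 18 libraries. CASAVA is named in the submitters' processing notes, and for aligner, build, annotation and strand the sources used here give nothing. Depth is unknown, so no counting interval is given, and without strand antisense neighbours cannot be told apart. Symbols came from the table for 13431 features and through RefSeq (assembly ASM4963464v1, used for names and neighbours) for 975, and 10474 had none.

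Genes with at least 1 FPKM in at least 3 of 18 libraries were tested (13475) on the scale log2(FPKM + 1). The test was that of limma 3.58.1 under R 4.3.3 (1 mean per group, all 18 libraries, moderated variance with trend, two-sided, Benjamini-Hochberg adjusted p under 0.05). The contrast was control livers minus control guts. On data simulated over 13475 genes, 64 of 100 genes changed by a log2 of 1 and 91 of 100 changed by 2 were recovered, with 8 false calls. The simulation used independent normal noise, changed only genes above a set level and left all others equal between organs. In the data 64.1% of genes differed, so these rates need not hold for this comparison. The count on all 3 scales was chosen after seeing the data. Alternatives were another pseudocount, other filters, 2 other scales, library weights, a fold minimum, a replicate block, the 6 control libraries alone and each control library left out.

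The members and lists (28 pathway and 23 marker lists) were chosen with earlier results of these data known. The naming rule took FGB, APOB, CDX2, FABP2 and MYH11, the 15 most abundant features of each organ, the 10 highest and 10 lowest differences among genes with a symbol whose groups do not overlap, up to 5 called members of each list by level, tested family members, and up to 3 members against the majority of their list. Some genes that the rule takes are not reported here.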

Additional observations from a re-analysis of the deposited data

Results flagged for a closer look

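In several genes the difference between liver and gut was not the same in exposed as in control turtles, by a test of that change across all genes with limma (adjusted p under 0.05). The values are the liver minus gut difference at a dose less that in controls, on the log2 scale. The change was 2.57 at nic10 and 2.23 at nic50 for FGG, 2.06 and 1.84 for FGA, and 1.39 and 1.30 for C9. The log2 liver excess of these 3 genes was thus larger at both doses. Control guts held little of them, so a small change of gut level can move the value, and which organ moved was not tested. At nic50 it was 1.62 for F10, 1.20 for PROS1 and 2.34 for FGL1, whose difference went from -0.91 in controls to 1.43. RET changed by -2.26 at nic50, from 1.41 to -0.85. SST changed by 4.40 at nic10, from -4.27 to 0.14. Such changes were found in 0.364% of all genes tested at nic10 and 0.987% at nic50, and their causes were not tested.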

How the results depend on the processing

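The scale, the filter and the fold minimum each moved counts by over 1.5 times. With a mean of at least 5 FPKM 4988 genes differed in controls, 1114 higher in liver and 3874 in gut, with 5135 at nic10, 4664 at nic50 and 3779 control calls found again at both doses (6298 without that minimum). With an absolute log2 difference of at least 1 these were 4946, of which 3781 higher in gut, then 5432, 4631 and 3273. Trimmed means gave 3424 higher in liver and 3380 in gut, and quantile normalization 3064 and 3697. Leaving out 1 control library gave 7682 to 8339 genes, 1496 to 1792 higher in liver, 5890 to 6841 in gut and 5882 to 6199 found again. Deviations of same-numbered livers and guts correlated at -0.06, 0.075 and -0.217, and those of different numbers at -0.248 to 0.317. Organs of the same animal need not deviate together, so whether the numbers pair the libraries cannot be told from this. A replicate block gave 8705 genes, 1714 higher in liver and 6991 in gut. Of 168 named genes past the threshold 161 kept their call in all 6 fits without 1 library. In every alternative that tested them 153 kept it, and the filters of some alternatives left some named genes untested. TFRC turned from -0.59 to 0.15 with trimmed means (adjusted p = 0.608), and the cause was not tested. Library weights stopped before convergence. Depth is unknown, so what it limits cannot be given.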
